A study of Mus musculus with 6 samples.

Results

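Tie2, its angiopoietin ligands, and the VEGF ligands and receptors were followed across 6 sorted stromal populations of mouse omentum. The set holds 10 genes chosen by name, Tek (which encodes Tie2), Tie1, Angpt1, Angpt2, Vegfa, Vegfb, Vegfc, Kdr (which encodes VEGFR2), Flt1 (VEGFR1) and Flt4 (VEGFR3), out of 23352 genes measured. The names were picked with earlier results of these data known, Tek among the genes the study had already singled out in P1, so the Tek level in P1 is no independent evidence. Each gene was found once in each library. Of the 10 genes, 6 reached 1 FPKM (fragments per kilobase of transcript per M mapped reads, where M is mega) in at least 1 library, and the other 4, Tie1, Angpt2, Flt1 and Flt4, stayed under 1 FPKM in all 6. Over all genes, 12904 (55.3%) reached that level.

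The study asked which omental cells make retinoic acid, and sorted cells from omenta of WT C57BL/6 mice by surface markers and by ALDH activity, the fluorescence produced by aldehyde dehydrogenases. Each of the 6 populations, P1 to P6, was measured by single-end RNA-seq in 1 library, so no value below has a replicate and no difference was tested. P1 was sorted as CD45- CD140a+ CD105+ cells with high ALDH activity, and P2 and P3 were CD45- CD140a+ CD105+ cells with intermediate and low ALDH activity. P4 and P5 were CD45- CD140a+ CD105- cells with intermediate and low ALDH activity, and P6 held CD45- CD140a low cells positive for ALDH activity. CD45 marks leukocytes, CD140a is PDGFRA and CD105 is endoglin. CD31, the usual endothelial surface marker, is not among the gating markers listed, and the age and number of mice behind each library were not given in the sources used here.

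Tie2 is a receptor tyrosine kinase best known from blood vessel endothelium. Angiopoietin 1, made largely by cells around the vessel, activates it and steadies the vessel wall, whereas angiopoietin 2 is stored in endothelial cells and mostly opposes that signal. VEGFA acts through VEGFR2 to drive vessel growth and permeability, VEGFR1 binds VEGFA and VEGFB, and VEGFC acts through VEGFR3 on lymphatic endothelium. In most tissues the ligands come from stromal, epithelial or perivascular cells and the receptors sit on endothelium. The omentum is a fold of fatty peritoneal tissue with clusters of leukocytes, the milky spots, around its vessels, and it is covered by mesothelium.

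The transcripts for the gates followed the sort for 2 of the 3 surface markers and, for the third, stayed low in every library. Eng (endoglin) lay between 42.6 and 52.4 FPKM in the 3 CD105+ libraries and was at most 0.728 FPKM elsewhere, Pdgfra lay between 117 and 154 FPKM in P1 to P5 against 5.36 FPKM in P6, and Ptprc (CD45) was at most 0.755 FPKM. Aldh1a2, which encodes a retinoic acid-producing enzyme, was highest in P1 at 469 FPKM and next in P4 at 285 FPKM, but lowest in P2 at 78.8 FPKM, below the ALDH low P3 and P5 at 134 and 145 FPKM, so its mRNA does not rank the libraries as the ALDH gate does. The spacing of low FPKM values gave estimated depths of 53.2 to 61.9 M reads for P1 to P5 and 36.9 M reads for P6. From these depths each level was turned into an estimated read number, and the brackets below hold 95% intervals for counting error only, which say nothing of the spread between sorts or mice. A gene was called higher where its FPKM was at least 2 times that of the other library and at least 1 in the higher library. Shares of all genes called between 2 libraries are of the genes at 1 FPKM or more in at least 1 of them.

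Tek and Kdr, the receptors of the TIE and VEGF families with measurable mRNA, lay at opposite ends of the populations. Tek was highest in P1 and lowest in P6, whereas Kdr was highest in P6 and lowest in P1, and both had P4 as their second-highest library. Their upstream sequences are shown beside those of Vegfa and Vegfc, the ligands that shared the low value of Tek in P6. Each run is the 250 bases before the RefSeq transcript start in build GRCm38.p6, written 5′ to 3′ along the gene's own strand, and capitals mark matches, on either strand, to ACGTG (the core of a hypoxia response element), CCGGAA (an ETS core), GGGCGG (a GC box) or AGGTCA (a retinoid receptor half-site). The Tek window is chr4:94739039-94739288 on the plus strand and the Kdr window chr5:75978456-75978705 on the minus strand. The Vegfa window is chr17:46032378-46032627 on the minus strand and the Vegfc window chr8:54077282-54077531 on the plus strand.
Tek: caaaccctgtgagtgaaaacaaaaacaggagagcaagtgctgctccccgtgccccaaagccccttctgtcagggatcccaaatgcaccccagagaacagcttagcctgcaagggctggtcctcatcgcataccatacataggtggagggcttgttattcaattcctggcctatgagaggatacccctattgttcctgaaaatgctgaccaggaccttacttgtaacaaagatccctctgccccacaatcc
Kdr: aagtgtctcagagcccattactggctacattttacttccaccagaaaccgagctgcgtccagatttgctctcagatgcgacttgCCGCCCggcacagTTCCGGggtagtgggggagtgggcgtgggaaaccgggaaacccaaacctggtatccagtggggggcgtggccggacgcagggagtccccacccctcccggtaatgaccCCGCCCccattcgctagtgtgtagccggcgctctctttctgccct
Vegfa: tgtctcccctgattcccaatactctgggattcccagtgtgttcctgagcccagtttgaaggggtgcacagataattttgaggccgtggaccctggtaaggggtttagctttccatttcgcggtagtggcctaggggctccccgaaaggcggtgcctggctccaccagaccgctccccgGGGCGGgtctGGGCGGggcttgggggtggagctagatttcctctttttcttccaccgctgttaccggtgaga
Vegfc: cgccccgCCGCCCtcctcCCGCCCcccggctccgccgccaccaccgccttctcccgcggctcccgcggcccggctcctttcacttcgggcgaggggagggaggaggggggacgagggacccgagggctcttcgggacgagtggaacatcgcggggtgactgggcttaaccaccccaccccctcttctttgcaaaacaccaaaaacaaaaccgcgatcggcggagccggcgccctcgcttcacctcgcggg
The Tek window held none of the 4 motifs, at 51.2% G and C against a median of 52.4% over all windows. The Kdr window held 1 ETS core and 2 GC boxes, the Vegfa window 2 GC boxes and the Vegfc window 2 GC boxes. Over all 32851 windows of the table, 16.6% held the hypoxia core, 12.0% the ETS core, 32.7% a GC box and 14.0% the retinoid half-site, so these matches are common. A second Vegfa start, with the window chr17:46025164-46025413 on the minus strand, held 1 hypoxia core and 1 GC box. Of the 10 genes, 8 had a window in the table. Among those not shown, the Vegfb window held 4 GC boxes and 2 retinoid half-sites. The Flt1 and Flt4 windows held 3 GC boxes each, and the Tie1 window none of the 4 motifs. These are descriptions of letters and say nothing of binding in these cells.

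Tek (chr4:94739289-94874976, plus strand, GRCm38) encodes Tie2, the receptor for the angiopoietins. Its level was 22.7 FPKM (P1), 8.76 (P2), 6.41 (P3), 11.3 (P4), 2.84 (P5) and 0.224 (P6). P1 stood above the 5 other libraries, and P6 was near the floor, with an estimated 33 reads against 4810 in P1. P1 was 2.59-fold (2.47 to 2.73) above P2, 3.55-fold (3.35 to 3.76) above P3, 2.02-fold (1.93 to 2.12) above P4, 8.02-fold (7.40 to 8.69) above P5 and 101-fold (71.9 to 147) above P6. Tek was the only member for which P1 exceeded all 5 other populations at least 2-fold, which held for 0.476% of the genes at 1 FPKM or more in P1. That call is narrow against P4, where the counting interval reaches below 2. In rank, Tek stood at percentile 87.7 of all genes in P1, 75.9 in P4, 73.2 in P2, 67.3 in P3, 57.2 in P5 and 41.0 in P6.

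Within each side of the CD105 gate, Tek was higher where ALDH activity was higher. Among CD105+ cells the order was P1, P2 and P3, with P2 1.37-fold (1.28 to 1.46) above P3. Among CD105- cells P4 was 3.97-fold (3.65 to 4.32) above P5. The CD105 gate itself gave no single direction for Tek. At low ALDH activity P3 was 2.26-fold (2.07 to 2.48) above P5, whereas at intermediate activity P4 was 1.28-fold (1.21 to 1.36) above P2, and that last difference changed sign, from -0.36 to 0.11 on the log2 scale of P2 over P4, when each library was divided by Gapdh. Each neighbour in the order P1, P4, P2, P3, P5 and P6 was separated from the next by more than the counting interval.

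Tie1 (chr4:118471191-118490061, minus strand), the second TIE receptor, which binds no angiopoietin by itself and modulates Tie2 in endothelium, was barely measured. It was 0.0508 FPKM (P1), 0.0484 (P2), 0.152 (P3), 0.0185 (P4), 0.0220 (P5) and 0.360 (P6). P6 and P3 had the highest values, with an estimated 52 and 36 reads. The library with the most Tek therefore held about 11 estimated reads of Tie1.

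**Figure D1:**
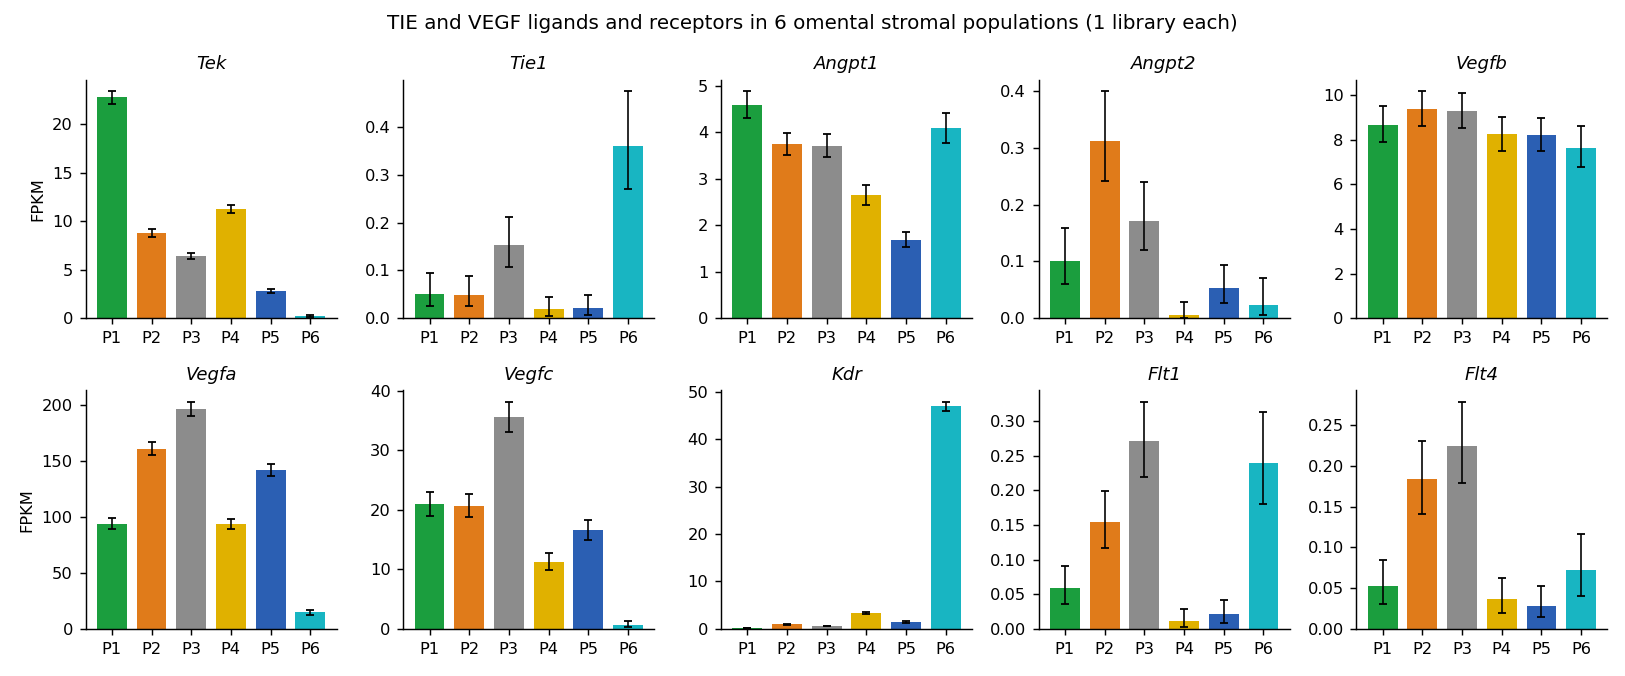
FPKM of the 10 genes (1 panel each, y axes on their own linear scales from 0) in P1 to P6, 1 library per bar, with 95% counting intervals as error bars. Tek goes from 22.7 FPKM in P1 to 0.224 in P6 and Kdr from 0.139 in P1 to 46.9 in P6, Vegfb lies between 7.65 and 9.38 throughout, and Tie1, Angpt2, Flt1 and Flt4 stay under 1.

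Angpt1 (chr15:42424723-42676977, minus strand), the activating ligand of Tie2, was present in all 6 populations. Its level was 4.59 FPKM (P1), 3.74 (P2), 3.71 (P3), 2.64 (P4), 1.69 (P5) and 4.09 (P6). The values spanned 2.72-fold, with the 3 CD105+ libraries and P6 above the 2 CD105- CD140a+ libraries. P5 was the low value. P3 was 2.2-fold (1.95 to 2.47) above P5 and P6 was 2.42-fold (2.13 to 2.74) above it, while P2 was 1.41-fold (1.28 to 1.57) above P4. In the order P1, P6, P2, P3, P4 and P5, the intervals did not separate P6 from P2 (1.09-fold, 0.984 to 1.21) or P2 from P3 (1.01-fold, 0.919 to 1.11). Ligand and receptor mRNA thus stood side by side in P1, at 4.59 and 22.7 FPKM, and in P6 Angpt1 was the more abundant, at 4.09 against 0.224 FPKM.

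Angpt2 (chr8:18690263-18741562, minus strand), the context-dependent antagonist, was low in every population. It was 0.10 FPKM (P1), 0.313 (P2), 0.172 (P3), 0.00508 (P4), 0.0530 (P5) and 0.0241 (P6). The highest value, in P2, rested on an estimated 65 reads and that in P4 on 1. P2 was 3.12-fold (1.83 to 5.59) above P1 at these low levels. Angpt1 exceeded Angpt2 in each library, by 45.8-fold in P1, 11.9-fold in P2, 21.6-fold in P3 and 31.9-fold in P5. No ratio is given for P4 and P6, where Angpt2 rested on at most 3 estimated reads.

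The other genes around Tie2 were described from a list of 4. Angpt4, the mouse gene for a further Tie2 ligand, was 3.59, 15.0 and 9.26 FPKM in P1, P2 and P3, 0.937 and 1.73 FPKM in P4 and P5, and 2.64 FPKM in P6. It peaked in P2, where it was 4.18-fold (3.75 to 4.66) above P1 and 16.0-fold (13.3 to 19.5) above P4, so P2 held more Angpt4 than Angpt1 mRNA. Svep1, an extracellular matrix protein needed for lymphatic vessel development, was 243 FPKM (P1), 207 (P2), 164 (P3), 118 (P4), 39.8 (P5) and 1.93 (P6). Like Tek it was highest in P1 and lowest in P6, with P1 126-fold (118 to 135) above P6. Ptprb (VE-PTP, the endothelial phosphatase that acts on Tie2) was at most 0.620 FPKM and Dok2, an adaptor that docks on activated Tie2, at most 0.293 FPKM.

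Vegfa (chr17:46016993-46032369, minus strand), the main driver of vessel growth, was the most abundant member in every library but P6. It was 94.1 FPKM (P1), 161 (P2), 197 (P3), 93.5 (P4), 142 (P5) and 14.7 (P6). P6 stood apart on the low side, and the 5 CD140a+ libraries lay within 2.1-fold of each other (P3 over P4), at percentiles 96.9 to 98.7 of all genes against 80.0 in P6. P3 was 13.4-fold (11.4 to 15.7) above P6 and P1 was 6.40-fold (5.45 to 7.53) above it. With falling ALDH activity Vegfa was higher on both sides of the CD105 gate, the reverse of Tek. P2 was 1.71-fold (1.61 to 1.82) and P3 2.09-fold (1.97 to 2.22) above P1, and P5 was 1.52-fold (1.43 to 1.61) above P4. CD105+ cells were above CD105- cells at both ALDH levels, 1.72-fold (1.62 to 1.83) for P2 over P4 and 1.38-fold (1.32 to 1.45) for P3 over P5. In the order P3, P2, P5, P1, P4 and P6, the intervals did not separate P1 from P4 (1.01-fold, 0.939 to 1.08).

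Vegfb (chr19:6982473-6987651, minus strand), a ligand of VEGFR1 linked to fat and heart metabolism more than to vessel growth, hardly varied. It was 8.68 FPKM (P1), 9.38 (P2), 9.28 (P3), 8.25 (P4), 8.21 (P5) and 7.65 (P6), a 1.22-fold range. It was the only member over 1 FPKM with less than a 2-fold range: 5 of those 6 reached 2-fold between the highest and the lowest library, against 38.1% of all genes at 1 FPKM or more.

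Vegfc (chr8:54077606-54187096, plus strand), the lymphatic growth factor, was 20.9 FPKM (P1), 20.7 (P2), 35.5 (P3), 11.2 (P4), 16.6 (P5) and 0.724 (P6). As with Vegfa, P3 held the most and P6 by far the least, at an estimated 9 reads. That estimate takes the shortest coding transcript, of 555 nt, and the longest, of 2449 nt, would give more reads. P3 was 49.1-fold (27.1 to 114) and P5 22.9-fold (12.6 to 53.2) above P6. Lower ALDH activity went with more Vegfc between P2 and P3 (1.72-fold, 1.53 to 1.94) and between P4 and P5 (1.48-fold, 1.25 to 1.75), but P1 and P2 did not separate (1.01-fold, 0.882 to 1.16). CD105+ cells were above CD105- cells at both ALDH levels, 1.84-fold (1.57 to 2.17) at the intermediate and 2.14-fold (1.89 to 2.44) at the low level. The ratio of Vegfa to Vegfc ran from 4.49 to 8.56 in P1 to P5 and was 20.3 in P6.

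Tek, Vegfa and Vegfc were lower in P6 than in each of the 5 other populations by at least 2-fold, which is 3 of the 5 members that could be asked, against 4.09% of all genes so asked. The summed level of the 3 VEGF ligands was 124, 191 and 241 FPKM in P1, P2 and P3, 113 and 167 FPKM in P4 and P5, and 23.1 FPKM in P6. Vegfa made up between 76.1% and 85.1% of that sum in P1 to P5 and 63.7% in P6. In bulk libraries such as these, fewer cells of a type and less RNA per cell cannot be told apart.

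The remaining VEGF family ligands came from a list of 2. Vegfd, listed under its older symbol Figf and like Vegfc a ligand of VEGFR3, was 140 FPKM (P1), 76.7 (P2), 67.6 (P3), 67.1 (P4), 33.9 (P5) and 25.9 (P6). Its order was that of higher levels with higher ALDH activity, as for Tek and unlike Vegfc, with P1 1.83-fold (1.78 to 1.88) above P2 and P4 1.98-fold (1.90 to 2.06) above P5. Vegfd was above Vegfc in each library. Pgf, a ligand of VEGFR1, lay between 0.243 FPKM in P5 and 2.03 FPKM in P6.

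Kdr (chr5:75932827-75978458, minus strand) encodes VEGFR2, the main signalling receptor for VEGFA. It was 0.139 FPKM (P1), 0.931 (P2), 0.624 (P3), 3.30 (P4), 1.46 (P5) and 46.9 (P6). P6 exceeded every other library by at least 14.2-fold (13.4 to 15.2 against P4), and P1 was the lowest, 338-fold (252 to 472) below P6. Kdr was the only member for which P6 exceeded all 5 others at least 2-fold, against 6.91% of genes at 1 FPKM or more in P6. Its rank moved from percentile 41.8 of all genes in P1 to 93.8 in P6. Among the CD140a+ cells Kdr was higher in CD105- libraries, 3.54-fold (3.13 to 4.02) for P4 over P2 and 2.33-fold (1.99 to 2.75) for P5 over P3. At intermediate ALDH activity it was above the low level on both sides, 1.49-fold (1.25 to 1.78) for P2 over P3 and 2.26-fold (2.04 to 2.52) for P4 over P5, but the ALDH high P1 was 6.70-fold (4.88 to 9.54) below P2. Each neighbour in the order P6, P4, P5, P2, P3 and P1 was separated by more than the counting interval.

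Flt1 and Flt4, the receptors VEGFR1 and VEGFR3, were under 1 FPKM throughout. Flt1 (chr5:147561604-147726011, minus strand) was 0.0584 FPKM (P1), 0.154 (P2), 0.271 (P3), 0.0112 (P4), 0.0213 (P5) and 0.240 (P6). Flt4 (chr11:49609263-49652739, plus strand) was 0.0531 FPKM (P1), 0.184 (P2), 0.225 (P3), 0.0363 (P4), 0.0287 (P5) and 0.0719 (P6). Both were highest in P3, at an estimated 99 reads for Flt1 and 82 for Flt4, and both were lower in P4 and P5 than in P2 and P3. P3 over P5 was 12.7-fold (6.20 to 30.2) for Flt1 and 7.84-fold (4.06 to 15.9) for Flt4 at these low levels. Kdr made up 99.3% of the 3 VEGF receptors' summed level in P6 and 55.5% of a sum of 0.250 FPKM in P1. The ratio of Tek to Kdr was 164 in P1 and 0.00478 in P6, with 9.42 in P2, 10.3 in P3, 3.41 in P4 and 1.95 in P5.

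The coreceptors of the VEGF receptors did not follow Kdr. Nrp1, which also binds semaphorins, was 53.5, 53.2 and 49.6 FPKM in P1, P2 and P3, 24.2 and 13.0 FPKM in P4 and P5, and 6.75 FPKM in P6. Nrp1 separated by CD105, 2.2-fold (2.13 to 2.28) for P2 over P4 and 3.83-fold (3.67 to 4.0) for P3 over P5, and was lowest where Kdr was highest. Nrp2, the coreceptor tied to VEGFC, was 5.22 FPKM (P1), 19.1 (P2), 21.4 (P3), 5.06 (P4), 10.2 (P5) and 3.42 (P6). Like Vegfc it was highest in P3 and lowest in P6, but P1 was 3.67-fold (3.43 to 3.92) below P2, a pair that Vegfc did not separate.

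**Figure D2:**
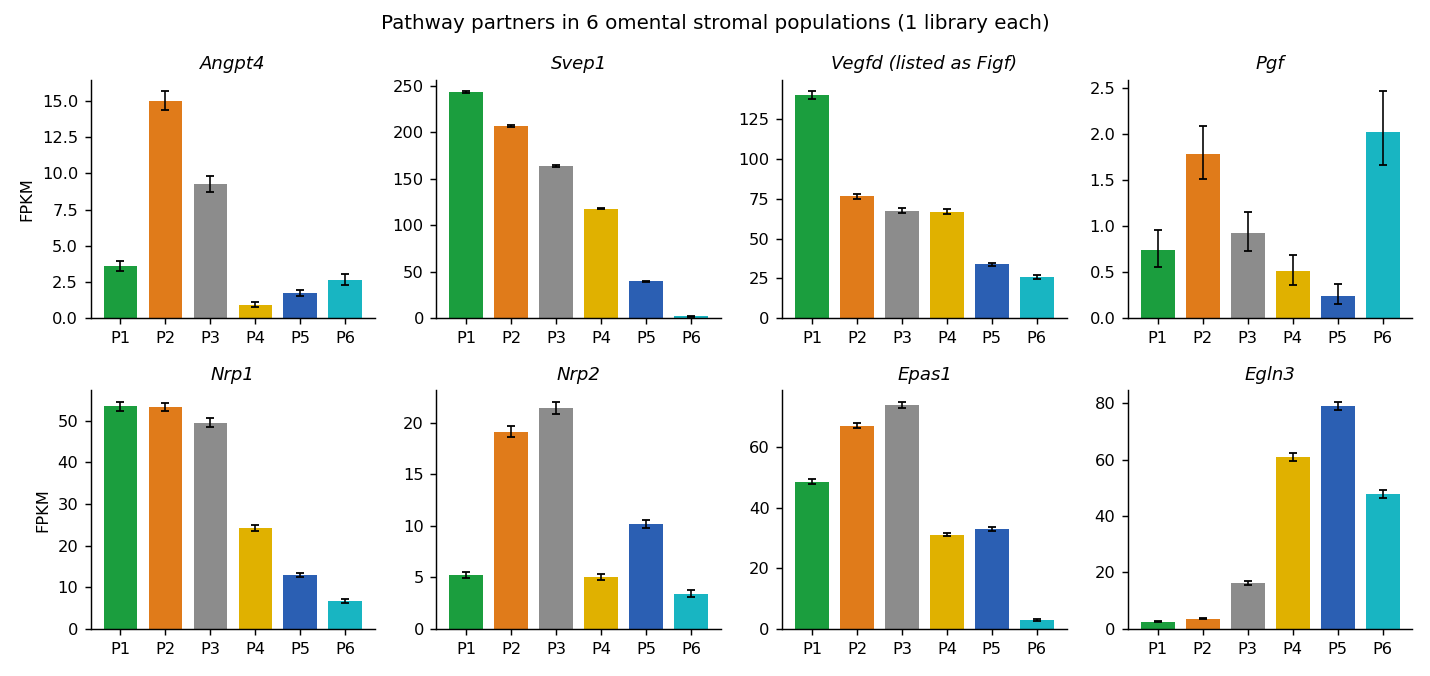
FPKM of 8 partner genes (1 panel each, linear y axes from 0) in P1 to P6, 1 library per bar, with 95% counting intervals as error bars. Svep1 and Vegfd are highest in P1 at 243 and 140 FPKM, Angpt4 in P2 at 15.0, Nrp2 and Epas1 in P3 at 21.4 and 74.2, and Egln3 in P5 at 79.0.

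Set out by gate, the members called were few. Between P1 and P2 only Tek was called, higher in P1, against 1.05% of all genes higher in P1 and 4.50% higher in P2. Kdr, at 0.931 FPKM in P2, missed the 1 FPKM that a call needs, and passed it, higher in P2, after division by Gapdh. Between P2 and P3 no member was called, against 3.91% of all genes in either direction. Between P4 and P5, Tek and Kdr were called higher in P4, against 4.17% of all genes in that direction and 5.74% in either. Across CD105 at intermediate ALDH activity only Kdr was called, higher in P4, against 7.94% of all genes in that direction and 13.0% in either, and after division by Gapdh Vegfa and Vegfc were called too, higher in P2, at log2 ratios of 1.26 and 1.36. At low ALDH activity Tek, Angpt1 and Vegfc were called higher in P3, against 7.55% of all genes, and Kdr higher in P5, against 6.50%. After division by Gapdh the Kdr call was lost, at a log2 ratio of -0.68 for P3 over P5 against -1.22 as deposited, and Vegfa was called higher in P3, at 1.01. Over the members at 1 FPKM or more in either library the median log2 ratio was 0.02 for P1 over P2, 0.01 for P2 over P3, 0.33 for P4 over P5, 0.34 for P2 over P4 and 0.78 for P3 over P5, and over all genes it was -0.04, -0.03, -0.04, -0.08 and -0.09.

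P1 and P4, the libraries with the most Aldh1a2, had the highest Tek levels, and as deposited their Vegfa levels were not separated. Between them Tek was called higher in P1, against 4.45% of all genes, and Kdr higher in P4 by 23.7-fold (17.6 to 33.4), against 10.4%. Division by Gapdh gave Vegfa a log2 ratio of 0.51 for P1 over P4 and added calls higher in P1 for Angpt1 (1.29) and Vegfc (1.40), and with the median of ratios Vegfc (1.07) was called as well. P5 and P6 differ in the CD140a gate and also in ALDH activity, low in P5 and positive in P6, and both held under 1 FPKM of Eng. Between them Tek, Vegfa and Vegfc were called higher in P5, against 7.02% of all genes, and Angpt1 and Kdr higher in P6, against 10.7%. The median log2 ratio of all genes was -0.12 for P1 over P4, -0.18 for P1 over P5 and -0.17 for P1 over P6, and relative to the median gene the log2 ratios of P1 to these libraries are larger by that amount.

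**Figure D3:**
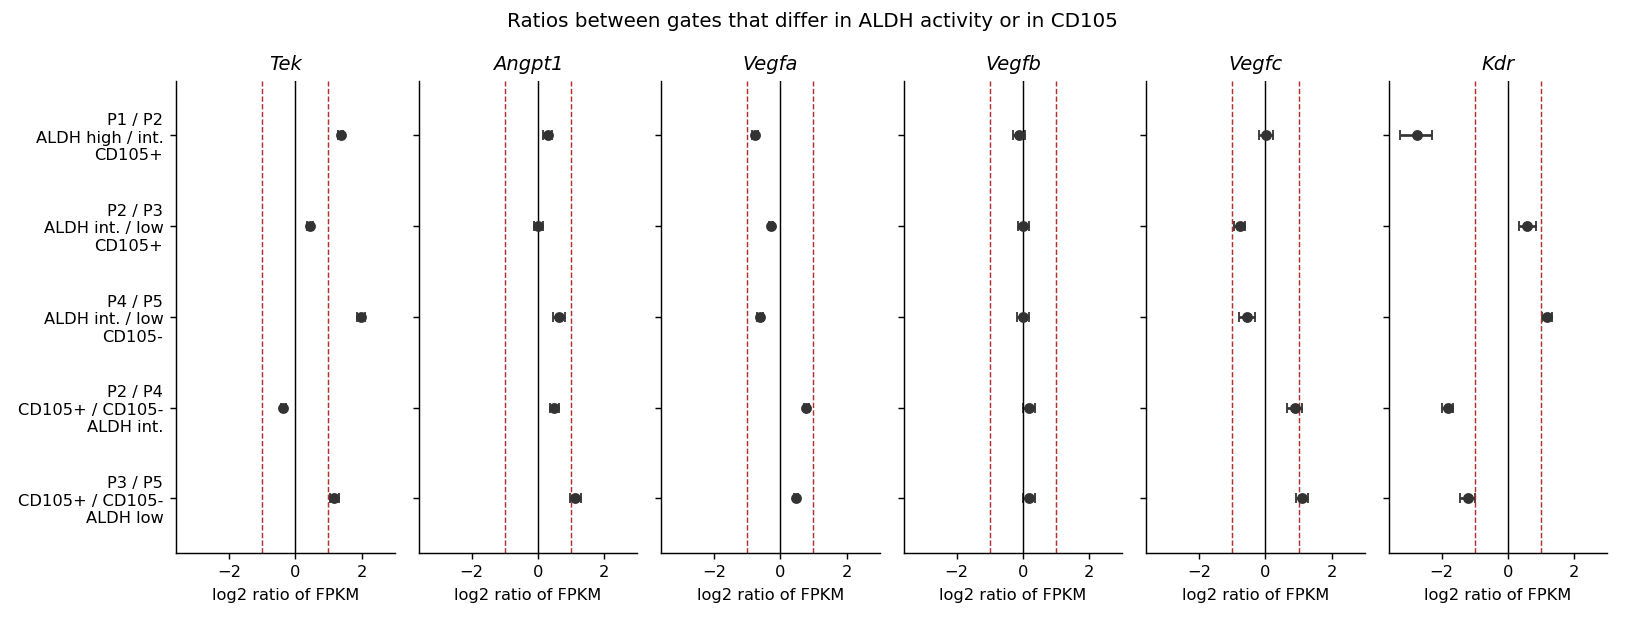
Log2 ratio of FPKM for the 6 members over 1 FPKM (1 panel each) in 5 pairs of gates, 1 library each, with 95% counting intervals as bars and dashed lines at a 2-fold difference. Tek is right of 0 in the 3 ALDH pairs at 1.38, 0.45 and 1.99, Vegfa is left of 0 in the same pairs, Vegfb stays near 0, and Kdr is left of 0 in both CD105 pairs.

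The genes that mature VEGFC form a list of 4. Ccbe1, which presents the protease to VEGFC, lay between 11.8 and 18 FPKM in all libraries. Adamts3, the protease best known to cut VEGFC, was 1.90 FPKM (P1), 2.41 (P2), 1.87 (P3), 1.26 (P4), 0.912 (P5) and 6.02 (P6), so it was highest where Vegfc was lowest. Of the related proteases, Adamts14 lay between 6.02 and 7.91 FPKM in P1 to P5 and was 1.08 FPKM in P6, and Adamts2, which mainly trims procollagen, ran from 340 FPKM in P1 to 60.0 in P5.

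Oxygen sensing, a main control of Vegfa, was covered by 8 genes of the sensing machinery and 11 targets of hypoxia-inducible factor found of 12 listed. In the 5 pairs of gates that differ in ALDH activity or CD105 alone, none of the 11 targets was called, among them Slc2a1, Pgk1 and Ldha. With the shares of all genes called in these pairs, given above, few of 11 genes would be called in any list, so nothing is read from the 0. Against P6, where Vegfa was lowest, the targets went both ways. Ldha was called higher in P3 and P5, at 126 and 121 FPKM against 60.5 in P6, and Vldlr higher in P1 to P4. Pdk1 and Bnip3 were called higher in P6 than in P1, P2 and P3, with Bnip3 at 37.9 FPKM in P6. The share of all genes called against P6 is given above for P5 only, so nothing is read from the number of these calls. Epas1, which encodes HIF-2alpha, was 48.6 FPKM (P1), 67.2 (P2), 74.2 (P3), 31.2 (P4), 33.0 (P5) and 2.90 (P6). Like Vegfa it was highest in P3 and lowest in P6, and it was 2.15-fold (2.1 to 2.21) above P4 in P2. Hif1a lay between 15.6 and 24.0 FPKM. Egln3, a prolyl hydroxylase that marks HIF proteins for breakdown, was 2.60 FPKM (P1), 3.69 (P2), 16.3 (P3), 60.9 (P4), 79.0 (P5) and 47.9 (P6), and so separated the CD105+ libraries from the 3 others. Egln3 and Epas1 were listed with the sensing genes and so are not among the targets counted above. Egln3 was called higher in P3 than P2, in P4 than P2 and in P5 than P3. Epas1 was called higher in P2 than P4 and in P3 than P5.

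The anti-angiogenic list held 8 genes. Thbs1 (thrombospondin 1) was 133, 170 and 190 FPKM in P1, P2 and P3, 65.1 and 57.9 FPKM in P4 and P5, and 13.0 FPKM in P6, the same highest and lowest populations as Vegfa. Serpinf1, which encodes the angiogenesis inhibitor PEDF, ran from 479 FPKM in P2 to 75.2 in P6. Vash1, the vasohibin made in response to VEGF, ran from 13.7 FPKM in P1 to 1.11 in P6. Col18a1, the source of endostatin, ran the other way, from 74.3 FPKM in P2 to 272 in P6. Chrdl1, a BMP antagonist, had its highest values in P6 at 18.4 FPKM and P2 at 16.2 FPKM. Among 7 angiopoietin-like genes, which do not bind Tie2, Angptl2 and Angptl4 lay between 82.8 and 147 FPKM in all libraries and Angptl7 ran from 2.64 FPKM in P6 to 151 in P5.

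Calls were also counted over the 46 pathway genes outside the 10 members. P1 was at least 2 times lower than P2 for 5 (Angpt4, Pgf, Nrp2, Chrdl1 and Vash2), against 4.50% of all genes. It was higher for 0, against 1.05%. P2 was higher than P3 for 1 and lower for 2, and P4 was higher than P5 for 2 and lower for 1. Across CD105 there were 9 higher in P2 and 2 higher in P4, and 11 higher in P3 and 3 higher in P5. Over all genes calls were also more frequent across CD105 (13.0% for P2 against P4, and 7.55% and 6.50% in the 2 directions for P3 against P5) than across ALDH activity (3.91% for P2 against P3 and 5.74% for P4 against P5). In P6, 4.09% of the genes at 1 FPKM or more in each of P1 to P5 were at least 2-fold below each other library. Of the 46, which were not filtered in that way, 7 were, namely Svep1, Adamts14, Epas1, Thbs1, Thbs2, Serpinf1 and Vash1. Adamts3 was the 1 gene of the 46 that was at least 2-fold above each, against 6.91% of genes at 1 FPKM or more in P6. The median log2 ratio of these genes was -0.06 for P1 over P2, 0.03 for P2 over P3, 0.01 for P4 over P5, 0.16 for P2 over P4 and 0.28 for P3 over P5, beside the medians over all genes given above.

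Tek and Kdr are both classed as endothelial genes, so the endothelial markers were read beside them. Of 14 endothelial markers, 3 reached 1 FPKM in any library. Pecam1 (CD31) was 0.518 FPKM (P1), 0.370 (P2), 0.552 (P3), 0.0672 (P4), 0.0955 (P5) and 0.992 (P6), and Cdh5 (VE-cadherin) was 0.119 FPKM in P1 and at most 0.343 FPKM, in P6. The Tek level in P1 was thus measured where Pecam1 and Cdh5 were under 1 FPKM. Cldn5 was at most 0.111 FPKM, Erg, Sox17 and Tal1 were listed at 0 in P6, Cldn5 and Tal1 in P4, and Sox17 in P2. The 3 that passed 1 FPKM were Egfl7, at 1.54 FPKM in P6, Plvap and Esam. Plvap was over 1 FPKM in every library, at 3.73 FPKM (P1), 5.27 (P2), 21.4 (P3), 10.1 (P4), 26.8 (P5) and 4.79 (P6). Esam, an adhesion molecule, was 15.1 FPKM in P4, 9.55 in P5 and 62.0 in P6. The summed level of the list was 6.10 FPKM (P1), 7.62 (P2), 25.7 (P3), 26.5 (P4), 38.0 (P5) and 71.6 (P6). It was lowest in P1, where Tek was highest, and highest in P6, where Kdr was highest, and 62.0 of the 71.6 FPKM in P6 came from Esam. Plvap gave 3.73 of the 6.10 FPKM in P1, 21.4 of the 25.7 in P3 and 26.8 of the 38.0 in P5.

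Lymphatic markers other than Lyve1 were under 1 FPKM, and the high endothelial genes were mixed. The 5 lymphatic markers summed to between 1.21 and 2.06 FPKM, with Prox1 at most 0.205 FPKM. Lyve1 was most of each sum, at 1.11 FPKM (P1), 1.64 (P2), 1.85 (P3), 0.985 (P4), 0.645 (P5) and 1.68 (P6). The 6 high endothelial genes summed to between 12.7 and 51.4 FPKM. Glycam1 was listed at 0 in all libraries and Madcam1 was at most 0.0398 FPKM, while Ackr1, listed as Darc, ran from 51.2 FPKM in P1 to 8.14 in P6 and Chst4 was 5.08 FPKM in P6.

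Mesothelial genes were highest where Kdr was highest, and among the CD105+ libraries some followed it by listed value and others did not. The 11 mesothelial markers found of 12 listed, all over 1 FPKM in some library, summed to 76.2 FPKM (P1), 97.7 (P2), 155 (P3), 1033 (P4), 834 (P5) and 3241 (P6). Msln (mesothelin) was 0.127 FPKM (P1), 0.550 (P2), 0.163 (P3), 6.86 (P4), 2.31 (P5) and 171 (P6), and Krt19 was 6.33 FPKM in P1 and 620 in P6. The mesothelial sum and Kdr both had P6 first, then P4, P5 and the CD105+ libraries. In P1 to P3 most of the sum was Wt1, at 50.3, 79.2 and 106 FPKM. Within CD105+ cells the list's median log2 ratio was 0.55 for P1 over P2 (6 genes) and -1.67 for P2 over P3 (7 genes). In both pairs the median was opposite in sign to Kdr. Msln and Krt7, under 1 FPKM in P1 to P3 and so outside these medians, had by listed value the order of Kdr over all 6 libraries. The other markers found did not. In P1, P2 and P3, Msln rested on an estimated 12, 62 and 18 reads and Krt7 on 1.9, 8.6 and 3.5. The counting intervals of P1 and P3 overlapped for both genes, and for Krt7 that of P2 as well, so their order there was not resolved. Pancreatic acinar genes, which mark another tissue, were also highest in P6 and P4 and lowest in P1, with all 10 of 10 over 1 FPKM in some library and sums of 4.06 FPKM (P1), 224 (P2), 22.9 (P3), 1194 (P4), 146 (P5) and 1759 (P6). Of 8 adipocyte genes, summing to between 153 and 359 FPKM with Fabp4 the highest, Adipoq and Cfd were 14.7 and 114 FPKM in P6 and under 1 FPKM elsewhere. The part of mesothelial, acinar or adipocyte RNA in the Kdr, Tek, Vegfa and Vegfc values was not tested.

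**Figure D4:**
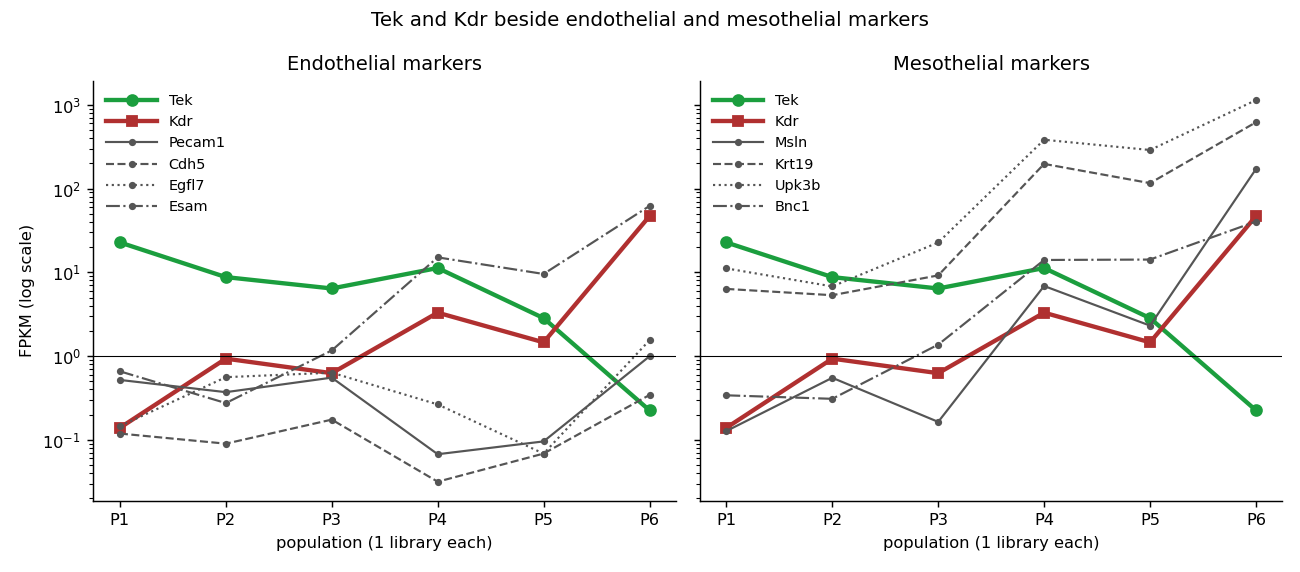
FPKM (log scale) of Tek and Kdr with 4 endothelial markers (left) and 4 mesothelial markers (right) in P1 to P6, 1 library per point, and a line at 1 FPKM. Pecam1 and Cdh5 stay under 1 in all libraries while Tek is 22.7 in P1, and Kdr reaches 46.9 in P6 together with Msln at 171.

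Mural and leukocyte markers were read in the same way. The 10 mural markers, which label pericytes and smooth muscle and of which 9 reached 1 FPKM, summed to 119 FPKM (P1), 261 (P2), 364 (P3), 234 (P4), 370 (P5) and 114 (P6). P5 and P3 were highest and P6 and P1 lowest. Des (desmin) was the largest part of each sum, at 57.2 FPKM (P1), 130 (P2), 198 (P3), 117 (P4), 191 (P5) and 37.1 (P6). The study stained desmin to show a network of reticular fibroblasts in milky spots, so Des is not particular to mural cells here. Of the genes used to mark pericytes, Rgs5 was at most 0.553 FPKM while Pdgfrb reached 76.9 FPKM in P2, Kcnj8 29.9 in P5 and Abcc9 29.8 in P3. Of 8 myeloid markers 5 reached 1 FPKM, and the list summed to between 23.1 and 69.2 FPKM and the lymphoid markers, 7 found of 8 with 3 over 1 FPKM, to between 1.41 and 7.36 FPKM. The part of these cells in the member values was not tested.

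The genes most like each varying member were taken by the smallest root mean square difference of centred log2(FPKM + 0.1) over the 6 libraries, among 11263 genes. For Tek they were Pla2g2e, a secreted phospholipase (0.22), Efhd1, a mitochondrial calcium-binding protein (0.25), and Bmper, a secreted BMP modulator (0.27). For scale, the profile of Tek itself spread by 1.97 around its mean. Pla2g2e was 22.6, 11.3 and 7.33 FPKM in P1, P2 and P3, 9.51 and 3.01 FPKM in P4 and P5, and 0.333 FPKM in P6, and so shared the order of Tek except that P2 was above P4. Bmper was 81.8 FPKM in P1 and 1.38 in P6.

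For Vegfa the nearest genes were Ptgir, the prostacyclin receptor (0.15), Slc7a8, an amino acid transporter (0.28), and Bgn, which encodes biglycan (0.28). Ptgir was 12.4 FPKM (P1), 22.4 (P2), 26.4 (P3), 12.3 (P4), 15.1 (P5) and 1.54 (P6), the order of Vegfa in full. For Vegfc, Tnfaip2 (0.26) and Defb25 (0.27) were among the nearest, and for Angpt1 they were Lfng, a modifier of Notch (0.11), Lrfn4 (0.12) and Rac3 (0.12). For Kdr they were Cobl (0.57), Faah (0.60) and Pdlim3 (0.61), against its own spread of 2.38, the widest of these members. Angpt1 itself spread by 0.47, so the size of these differences is not comparable between members. Cobl was 15.8 FPKM in P6 and 0.0207 in P1.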

How the data were processed

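The authors prepared 6 libraries from sorted omental cells with NEBNext Ultra kits and sequenced them single-end. The submitters' processing notes name TopHat2 2.0.7, Cufflinks 2.1.1 and build mm10, and annotation, filters and pooling are not given in the sources used here. The deposited values are 1 FPKM column per library with 23847 rows and no counts. Rows repeating a symbol (495) were summed. Groups followed the sample titles, and gates the study's sorting scheme.

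Ratios were taken without pseudocount in Python 3.11.15 (numpy 2.4.6, pandas 2.3.3, scipy 1.17.1, matplotlib 3.10.9). With 1 library per population no test was made. Depth was estimated from 3321 single-transcript genes, taking transcript length minus 200 nt: 53.8% to 57.9% of values of up to 10 reads lay within 0.05 of a whole number (10% by chance), so reads are estimates and not recovered counts. The shortest coding GENCODE transcript set each read estimate (513 nt for Vegfa and 555 nt for Vegfc), which widens the exact 95% Poisson intervals. No ratio was given under 3 estimated reads. Scripts were tested on simulated data. Named genes were the 10 members, the listed pathway, gate and marker genes, and the 3 nearest profiles of each member over 1 FPKM with a 2-fold range, of which 1 is not reported here. The members and lists were chosen with earlier results of these data known.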

Additional observations from a re-analysis of the deposited data

How the results depend on the processing

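No paired analysis was possible because the 6 groups hold a single library apiece. Of the counts of members called under an alternative, 61 were unchanged or moved by at most 1.5 times, and 21 moved by over 1.5 times. Of the log2 ratios, 207 moved by less than their counting interval, 45 by more, and 0 called ratios changed sign. The 207 include an alternative that kept the highest row of a repeated symbol, which could not move members found once in each library. The members selective for P1 (1, Tek) came to 0 with a pseudocount of 1 FPKM and 0 at a fold of 3, and those selective for P6 (1, Kdr) to 2 with no minimum FPKM. Leaving out any single population changed neither. Members called between P1 and P2 (1) came to 2 after division by Gapdh, 5 with no minimum, 2 at a fold of 1.5 and 0 at a fold of 3. Between P2 and P3 (0) they came to 1 with no minimum and 1 at 1.5. Between P4 and P5 (2) they came to 1 with a pseudocount of 1 FPKM, 3 with no minimum, 1 with at least 5 FPKM, 4 at 1.5 and 1 at 3. Between P2 and P4 (1) they came to 3 after division by Gapdh, 5 with no minimum, 0 with at least 5 FPKM and 3 at 1.5. Between P3 and P5 (4) they came to 1 with a pseudocount of 1 FPKM, 8 with no minimum, 2 with at least 5 FPKM and 0 at 3. Division by Gapdh left the P3 and P5 count at 4 with other members, Vegfa in place of Kdr. The shifts with thresholds follow from their construction, and the cause of the shifts with Gapdh, which itself ran from 214 FPKM in P1 to 326 in P5, was not tested. The members lowest in P6 (3), counted after seeing the data, came to between 2 and 3. Among uncalled ratios, Tek in P2 over P4 went from -0.36 to 0.11 and Vegfb in P5 over P6 from 0.10 to -0.17 after division by Gapdh, and 4 ratios of Angpt1, Vegfb and Vegfc within 0.02 of 0 on the log2 scale changed sign with a common sum of FPKM. At the levels of Tie1, Angpt2, Flt1 and Flt4, depth limits every comparison, and a difference between populations could not be told from a difference between sorts.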
